A study of Mus musculus with 32 samples.

Results

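The transcripts described here encode 9 proteins that store maternal messenger RNA or control its translation in the oocyte: Ybx2, Zar1, Zar1l, Ddx6, Cpeb1, Lsm14b, Eif4enif1, Patl2 and Dazl. They were named as a list and looked up by gene symbol in the deposited count table. All 9 were present among 13175 genes, and all 9 passed the filter on low counts in every comparison. The measurements came from 32 single mouse oocytes, 1 library each, made with the low-input kit SMART-Seq2 v4. Every oocyte was labelled wild type (WT) and had grown inside a preantral follicle cultured in an encapsulated in vitro system (eIVFG), so all 4 groups share that culture. The groups were 4 germinal vesicle (GV) oocytes from fresh follicles and 4 from vitrified follicles, both taken on day 8, and 12 metaphase II (MII) oocytes from fresh and 12 from vitrified follicles, both taken after induced ovulation on day 9. All MII oocytes are labelled as coming from follicles after human chorionic gonadotropin (post-hCG). The labels of the GV oocytes name no hCG. The sources used here do not give the age of the mice, nor the mouse or culture from which each oocyte came. The p-values below therefore measure the spread between these oocytes, which may share an animal or a dish.

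A growing oocyte makes and stores mRNA, then stops transcription before meiosis resumes and relies on the store. Stored mRNAs are held with short poly(A) tails and bound by proteins such as the Y-box protein YBX2 and the zygote arrest proteins ZAR1 and ZAR1L, and by repressor complexes in which DDX6, LSM14B, PATL2 and the eIF4E-binding protein EIF4ENIF1 (also called 4E-T) act. As meiosis proceeds, CPEB1 supports the lengthening of tails, and factors such as CPEB1 and DAZL switch chosen mRNAs into translation. Many other maternal mRNAs are broken down.

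cDNA synthesis with this kit is known to start from the poly(A) tail. A level below therefore depends on how much of a transcript was there and on its tail. Levels are also scaled to the counts of the same oocyte. Higher or lower below thus means relative to its other transcripts, not an amount per oocyte. For that reason the 3′ ends of 4 members are shown as examples, each with a tail signal or a CPEB1 site. Other members also had such a site, as counted below. The sequences are 30-base sense-strand windows from GENCODE M21 on GRCm38, 5′ to 3′, with the site in capitals and 12 bases before and after it.
Ybx2: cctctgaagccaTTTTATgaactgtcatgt
Lsm14b: aaatgcaaactaAATAAAcattggactctt
Dazl: cttgtatacacgAATAAAacctttttttca
Eif4enif1: ttcttttggtttATTAAAagttacatatgc
In the Ybx2 window (chr11:69941532-69941561, + strand, 3′ UTR) the capitals mark a cytoplasmic polyadenylation element (CPE), the motif that CPEB1 binds, whose last base lies 56 bases before the annotated end. In the windows of Lsm14b (chr2:180035429-180035458, + strand), Dazl (chr17:50279400-50279429, − strand) and Eif4enif1 (chr11:3244542-3244571, + strand) they mark the poly(A) signal in the 3′ UTR. The letters TTTTAT or TTTTAAT were searched on the sense strand in the last 100 bases of the annotated transcript, and a gene with several matches, which may overlap, was counted once. Among 12429 genes of the table with a 3′ UTR of at least 100 bases, 20.1% had a match, and so did 1 of 8 members, Ybx2. AATAAA or ATTAAA stood in the last 40 bases of 77.8% of these genes and of 7 of 8 members, all but Ybx2. The annotated 3′ UTR of Zar1l has 14 bases, so that gene has no window. Over the whole 3′ UTR, whose length differs between genes, the CPE letters stood 7 times in Ddx6, 6 in Dazl, 4 in Cpeb1, 2 in Lsm14b, 1 in Eif4enif1 and 1 in Ybx2. A match is a description of these letters and not of a working site.

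Total counts per oocyte ran from 10357543 to 17687247 in fresh and from 11159677 to 16554201 in vitrified GV oocytes, and from 6196976 to 10142902 in fresh and from 5300208 to 12206512 in vitrified MII oocytes. All 12 oocyte markers looked for were present, with a summed level of 10378 to 25028 CPM (counts per 1e6 counts). Of 26 markers of cumulus and granulosa cells 22 were present, and their sum stayed between 65.6 and 251 CPM in 30 oocytes. It reached 3288 CPM in fresh MII oocyte 11 and 631 CPM in vitrified MII oocyte 12. Single markers differed. Ptx3, a cumulus gene, was at 0 in 8 of 8 GV and 20 of 24 MII oocytes. For Tnfaip6 it was 7 GV and 16 MII oocytes, for Amhr2 5 and 20, and for Has2 4 and 13. Fshr was at 0 in 1 GV and 8 MII oocytes and Inha in 0 and 10. Cyp19a1 was at 0 in 0 oocytes of either stage, with medians of 35.6 CPM at GV and 76.6 CPM at MII. Fresh GV oocyte 3 and vitrified GV oocyte 1 stood apart from the other GV oocytes, with median Spearman correlations of 0.824 and 0.776 to them, and fresh MII oocyte 11 stood apart from the other MII oocytes at 0.793. GV libraries carry numbers from 81 to 85 and MII libraries numbers from 2 to 25. The values of all GV oocytes were whole, while 11.7% to 19.7% of the values of each MII oocyte were not. Stage, day, the post-hCG label, library series and this difference in how values were made therefore cannot be told apart in any stage comparison below.

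Between the GV and the MII stage, 7 of the 9 transcripts changed in oocytes from fresh follicles and 6 of 9 in oocytes from vitrified follicles, at an adjusted p under 0.05 in edgeR's quasi-likelihood test. In fresh oocytes Zar1l, Ybx2, Lsm14b and Cpeb1 were lower at MII and Dazl, Ddx6 and Eif4enif1 higher. In vitrified oocytes the same 4 genes were lower, and Dazl and Eif4enif1 were higher. Zar1 and Patl2 passed in neither. Background shares are large here: of 10717 genes tested in fresh oocytes 23.5% were higher and 30.6% lower at MII, and of 10316 in vitrified oocytes 25.1% were higher and 34.2% lower. The median log2 fold change was −0.28 over the members and −0.23 over all genes in fresh oocytes, and −0.48 against −0.27 in vitrified ones. The 2 treatments share no oocyte in these comparisons. Scaling to total counts moved the median of all genes to −0.60 and −0.72. It left 1 member higher and 4 lower in fresh oocytes and 0 higher and 5 lower in vitrified ones, the direction of the 4 lower genes being kept.

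**Figure D1:**
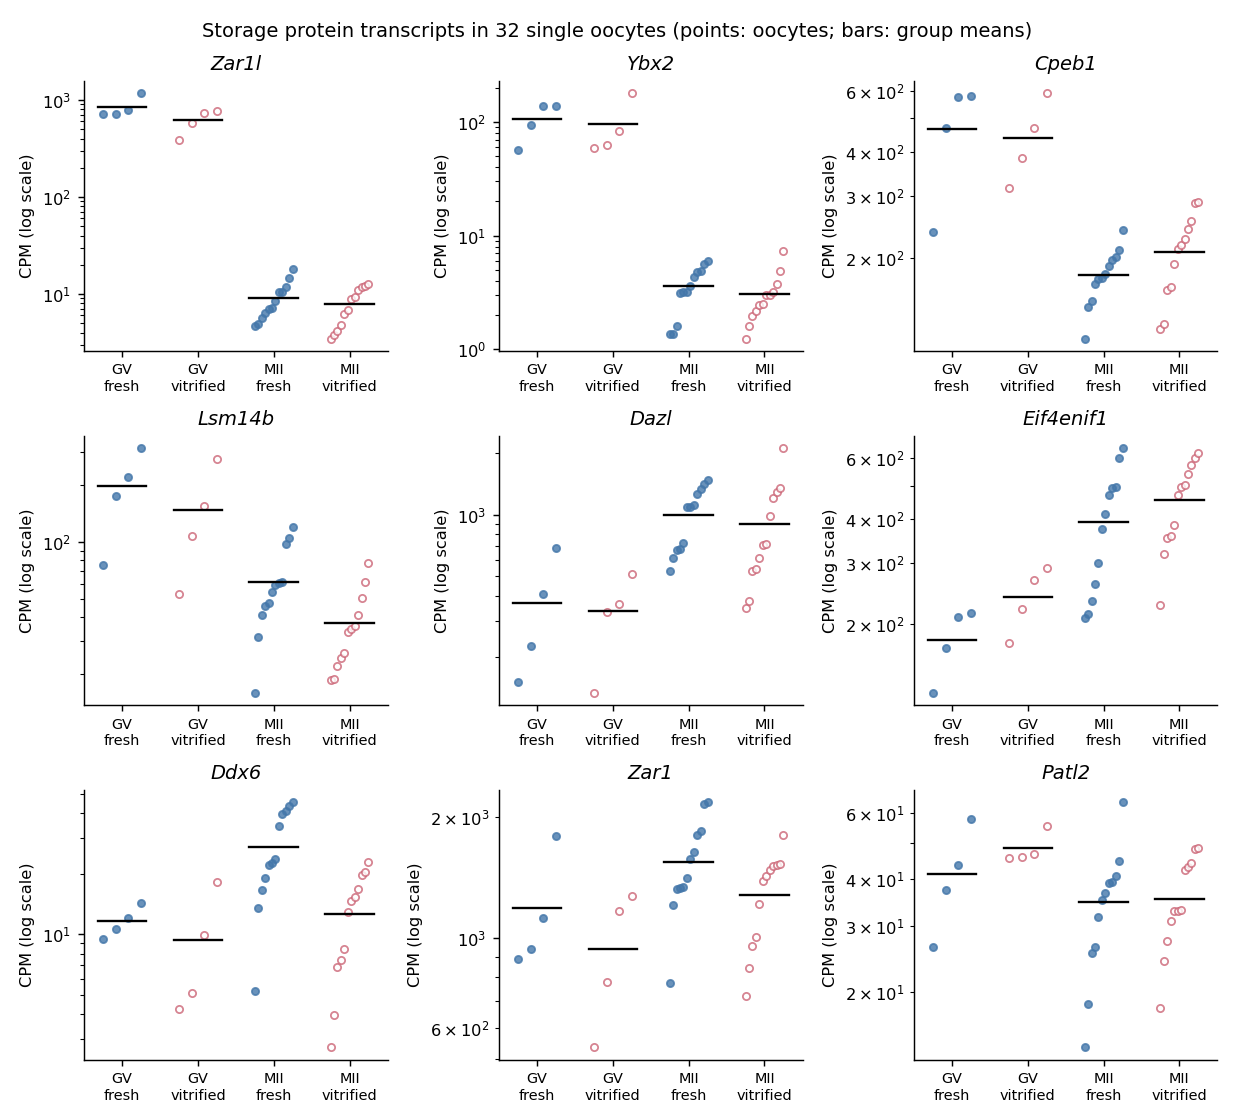
Level of each of the 9 transcripts in 32 single oocytes, in CPM on a log axis that differs between panels. Points are oocytes (filled for fresh, open for vitrified follicles) and bars are group means. All MII oocytes lie below all GV oocytes for Zar1l and Ybx2, while treatments overlap within each stage for all 9 genes.

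The members with the widest stage differences were Zar1l and Ybx2. ZAR1L is a paralog of ZAR1 and binds maternal mRNA through its zinc finger domain. In fresh GV oocytes 1 to 4 the values were 720.0, 721.5, 1171 and 792.9 CPM of Zar1l, and vitrified GV oocytes 1 to 4 had 389.5, 739.0, 767.3 and 579.5 CPM. In MII oocytes the lowest, median and highest values were 4.70, 7.78 and 17.9 CPM after fresh culture and 3.47, 7.84 and 12.5 CPM after vitrification. Every MII oocyte was far below every GV oocyte of either treatment. From GV to MII the log2 fold change was −6.57 ± 0.30 (SE, adjusted p = 8.23e-12) in fresh oocytes, which is 95.3-fold lower with a 95% interval of 61.6 to 147. In vitrified oocytes it was −6.34 ± 0.31 (adjusted p = 7.58e-13), or 80.8-fold lower. These values rest on 4356 to 17840 counts in GV and 27 to 117 counts in MII oocytes, all of them whole numbers. Zar1l overlaps the gene Gm15933 on the same strand, and the rule for reads in such overlaps was not stated.

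YBX2, also called MSY2, is a germ cell Y-box protein that coats and stabilizes stored mRNA. Fresh GV oocytes 1 to 4 had 94.4, 139.3, 56.2 and 137.1 CPM of Ybx2, and vitrified GV oocytes 1 to 4 had 62.2, 59.0, 179.2 and 83.7 CPM. In MII oocytes the lowest, median and highest values were 1.36, 3.42 and 6.02 CPM (fresh) and 1.24, 2.74 and 7.38 CPM (vitrified). The stages again did not overlap. Its log2 fold change was −4.92 ± 0.34 (adjusted p = 9.75e-10) in fresh and −4.95 ± 0.37 (adjusted p = 3.1e-10) in vitrified oocytes, 30.2-fold and 31.0-fold lower at MII. Counts of Ybx2 were 611 to 4101 in GV and 6 to 83 in MII oocytes, all whole. For 2 of 9 members in fresh oocytes, these 2 genes, the stages did not overlap, against 32.9% of all genes tested. In vitrified oocytes it was 3 of 9, Cpeb1 being the other, against 37.2%.

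Zar1, the paralog of Zar1l, did not pass in either treatment. ZAR1 is needed for the oocyte-to-embryo transition and binds maternal mRNA. In fresh GV oocytes 1 to 4 the values were 939.7, 1125, 889.9 and 1793 CPM, and vitrified GV oocytes 1 to 4 had 535.4, 778.7, 1269.8 and 1167.8 CPM. MII oocytes had 772.6, 1495 and 2175 CPM (lowest, median, highest, fresh) and 717.2, 1407 and 1808 CPM (vitrified). The ranges overlapped in both treatments, and 4 of 12 fresh and 7 of 12 vitrified MII oocytes were above all GV oocytes of their treatment. The log2 fold change was 0.35 ± 0.24 (adjusted p = 0.220) in fresh and 0.42 ± 0.25 (adjusted p = 0.157) in vitrified oocytes, with 95% intervals from −0.14 to 0.85 and from −0.10 to 0.95. Zar1 passed without fresh GV oocyte 4, the highest GV value, at 0.66 (adjusted p = 0.0398). With total counts its sign turned, at −0.03 in fresh and −0.07 in vitrified oocytes.

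Cpeb1 and Lsm14b were lower at MII by smaller factors. CPEB1 binds the CPE, represses its targets in the GV oocyte and supports their polyadenylation when meiosis resumes. Fresh GV oocytes 1 to 4 had 469.6, 579.7, 237.2 and 576.8 CPM of Cpeb1, and vitrified GV oocytes 1 to 4 had 316.8, 384.6, 589.5 and 468.8 CPM. MII oocytes had 117.9, 177.8 and 240.2 CPM (lowest, median, highest, fresh) and 125.7, 215.0 and 288.5 CPM (vitrified). Of 12 fresh MII oocytes 11 were below all fresh GV oocytes, and in vitrified oocytes all 12 were. From GV to MII the log2 fold change was −1.40 ± 0.20 (adjusted p = 7.8e-06) in fresh and −1.11 ± 0.22 (adjusted p = 1.63e-04) in vitrified oocytes. A pseudogene, Rpl7a-ps9, lies within Cpeb1 on the opposite strand, and no use of strand in counting is stated.

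LSM14B is an oocyte RNA-binding protein of the storage particles and is needed for meiotic maturation. In fresh GV oocytes 1 to 4 the values were 175.0, 315.5, 75.3 and 221.6 CPM of Lsm14b, and vitrified GV oocytes 1 to 4 had 53.2, 107.6, 274.1 and 154.7 CPM. MII oocytes had 15.9, 56.6 and 120.1 CPM (lowest, median, highest, fresh) and 18.7, 34.1 and 77.9 CPM (vitrified). Of the MII oocytes 9 of 12 fresh and 10 of 12 vitrified MII oocytes were below all GV oocytes of their treatment. The log2 fold change was −1.71 ± 0.37 (adjusted p = 6.12e-04) in fresh and −2.02 ± 0.36 (adjusted p = 5.1e-05) in vitrified oocytes. The lowest GV values of Lsm14b and Cpeb1 among fresh oocytes were both in oocyte 3, one of the 2 that stood apart, and both genes still passed without those 2 oocytes.

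Dazl and Eif4enif1 were higher at MII in both treatments. DAZL is a germ cell RNA-binding protein that promotes translation of maternal mRNAs during maturation. Fresh GV oocytes 1 to 4 had 406.3, 227.3, 688.2 and 151.5 CPM of Dazl, and vitrified GV oocytes 1 to 4 had 366.2, 509.0, 133.6 and 333.3 CPM. MII oocytes had 526.5, 1089.8 and 1482 CPM (lowest, median, highest, fresh) and 347.6, 715.2 and 2125 CPM (vitrified). The ranges overlapped, with 8 of 12 fresh and 10 of 12 vitrified MII oocytes above all GV oocytes of their treatment. From GV to MII the log2 fold change was 1.41 ± 0.37 (adjusted p = 0.003) in fresh and 1.39 ± 0.44 (adjusted p = 0.0091) in vitrified oocytes. MII levels of Dazl also differed by library number: the median was 1266 CPM (fresh) and 1210.3 CPM (vitrified) in libraries numbered under 20, and 668 and 532 CPM in the others. With the MII libraries numbered 20 and over alone, Dazl no longer passed (0.98, adjusted p = 0.0760, and 0.77, adjusted p = 0.115). With total counts it did not pass in vitrified oocytes (adjusted p = 0.0560).

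EIF4ENIF1 binds the cap-binding protein eIF4E and holds mRNAs in a repressed, stable state. In fresh GV oocytes 1 to 4 the values were 215.6, 170.1, 126.5 and 208.9 CPM, and vitrified GV oocytes 1 to 4 had 268.2, 176.5, 290.3 and 220.9 CPM. MII oocytes had 207.6, 394.1 and 643.0 CPM (lowest, median, highest, fresh) and 226.3, 483.0 and 619.5 CPM (vitrified). All but 2 fresh and 1 vitrified MII oocytes were above all GV oocytes of their treatment. The log2 fold change was 1.09 ± 0.30 (adjusted p = 0.00476) in fresh and 0.90 ± 0.24 (adjusted p = 0.00338) in vitrified oocytes. It did not pass with total counts (adjusted p = 0.0805 and 0.160). The gene overlaps Drg1 on the opposite strand. Values were not whole in 22 of 24 MII oocytes for Dazl, 21 for Zar1, 19 for Eif4enif1 and 14 for Cpeb1, against 5 for Lsm14b, 2 for Ddx6 and 0 for Zar1l, Ybx2 and Patl2.

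**Figure D2:**
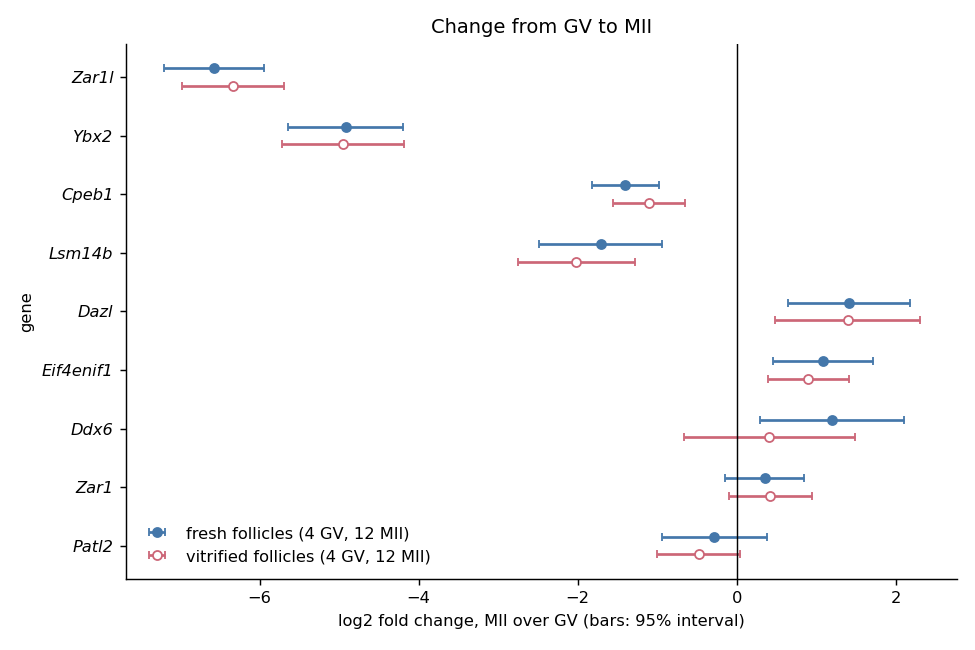
Log2 fold change from GV to MII for each transcript, with its 95% interval, in oocytes from fresh (filled) and vitrified (open) follicles. Zar1l and Ybx2 lie below −4, Cpeb1 and Lsm14b between −2.1 and −1, and the intervals of Zar1 and Patl2 include 0 in both treatments.

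The remaining members had low levels. DDX6 is the RNA helicase at the core of translational repressor complexes. Fresh GV oocytes 1 to 4 had 10.6, 14.3, 12.0 and 9.46 CPM of Ddx6, and vitrified GV oocytes 1 to 4 had 5.10, 4.22, 18.2 and 9.91 CPM. MII oocytes had 5.19, 23.2 and 45.3 CPM (lowest, median, highest, fresh) and 2.72, 13.8 and 22.9 CPM (vitrified). Of 12 fresh MII oocytes 10 were above all fresh GV oocytes, against 3 of 12 after vitrification. From GV to MII the log2 fold change was 1.20 ± 0.44 (adjusted p = 0.0258) in fresh and 0.41 ± 0.52 (adjusted p = 0.518) in vitrified oocytes, and the test of the difference between these 2 changes did not pass (below). The call in fresh oocytes was lost without fresh GV oocyte 1 (adjusted p = 0.0625), 3 (0.0561) or 4 (0.0683), with a filter of at least 10 CPM (0.0696), with total counts (0.126) and with the later MII libraries alone (0.0904). Ddx6 overlaps E030022I16Rik and Gm47234 on its own strand and Gm30671 on the other.

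PATL2 is an oocyte RNA-binding protein that represses translation. In fresh GV oocytes 1 to 4 the values were 57.9, 43.6, 37.4 and 26.4 CPM of Patl2, and vitrified GV oocytes 1 to 4 had 45.6, 55.6, 46.0 and 46.8 CPM. MII oocytes had 14.2, 36.0 and 64.2 CPM (lowest, median, highest, fresh) and 18.1, 33.1 and 48.5 CPM (vitrified). All ranges overlapped. The log2 fold change was −0.28 ± 0.32 (adjusted p = 0.477) in fresh and −0.48 ± 0.25 (adjusted p = 0.110) in vitrified oocytes. The latter passed with a filter of at least 10 CPM (−0.73, adjusted p = 0.0127) and with total counts (−0.95, adjusted p = 0.00464). Patl2 overlaps B2m and Trim69 on the opposite strand.

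Levels were also compared between genes after division by the annotated exon length (CPM per kb). At the GV stage Zar1l had the highest mean level, 951 ± 241 (SD, n = 4) CPM per kb in fresh and 691 ± 194 in vitrified oocytes. Zar1 followed at 342 ± 120 and 271 ± 98.6, and Ddx6 was lowest at 1.44 ± 0.26 and 1.17 ± 0.80. At MII Zar1 was highest, at 447 ± 116 (SD, n = 12) in fresh and 370.3 ± 95.9 in vitrified oocytes, followed by Dazl at 262 ± 89.2 and 236 ± 135 and Eif4enif1 at 61.6 ± 23.8 and 71.2 ± 19.5. Zar1l stood at rank 7 of 9, with 10.2 ± 4.56 and 8.81 ± 3.86 CPM per kb. Ybx2 at 1.90 ± 0.85 was lowest in fresh MII oocytes and Ddx6 at 1.57 ± 0.83 in vitrified ones. Several neighbours in these orders differed by less than their SD. At the GV stage these were Cpeb1 (111 and 105) and Dazl (96.4 and 87.8), and Lsm14b (68.1 and 51.0) and Ybx2 (56.6 and 50.9). In vitrified MII oocytes they were Lsm14b (12.8) and Patl2 (14.6). In fresh MII oocytes Lsm14b (21.3 ± 10.7) and Patl2 (14.2 ± 5.39) differed by less than the SD of Lsm14b but by more than that of Patl2. The level of Zar1l per kb rests on annotated exons of 0.895 kb with the short 3′ UTR named above.

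**Figure D3:**
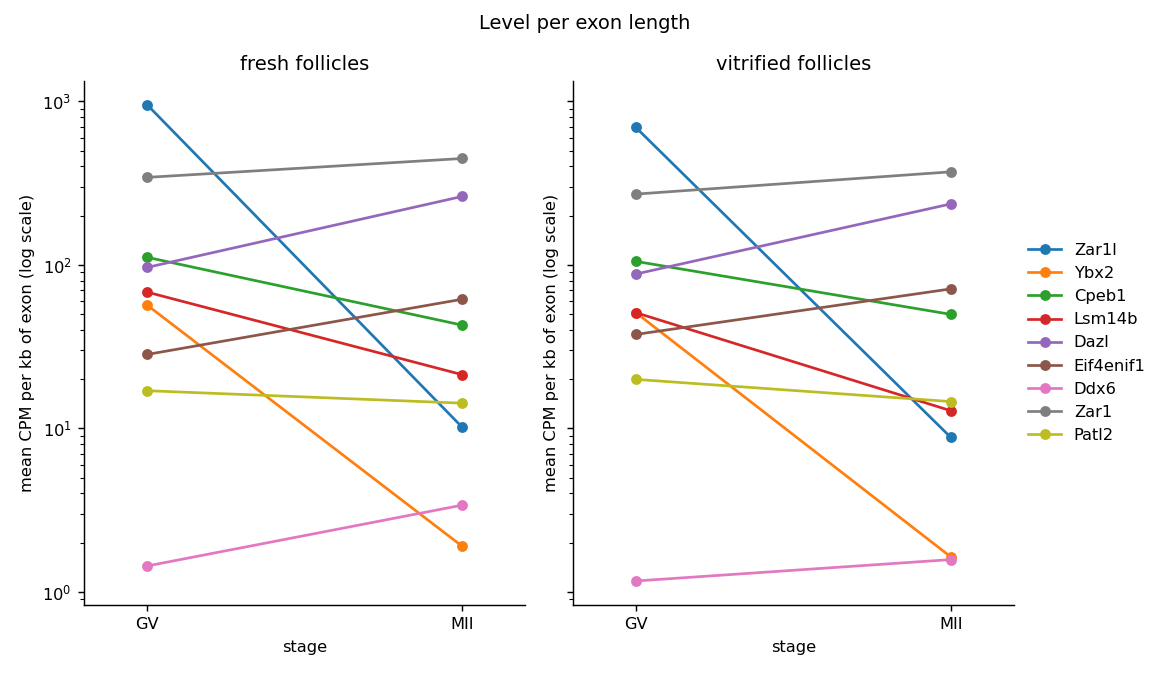
Mean level per kb of annotated exon (CPM per kb, log axis) at GV and MII in oocytes from fresh (left) and vitrified (right) follicles, 1 line per gene. Zar1l goes from rank 1 at GV to rank 7 at MII and Zar1 is the highest at MII in both panels.

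Vitrification of the follicle was compared with fresh culture within each stage. No member passed in either stage, and 0% of all genes tested did (of 10831 at GV and 8428 at MII). In GV oocytes 0 of 9 members were under an unadjusted p of 0.05, against 1.66% of all genes, and in MII oocytes 2 of 9 were, Ddx6 and Lsm14b, against 12.5%. The median log2 fold change of the members, vitrified over fresh, was −0.15 at GV (all genes 0.00) and −0.20 at MII (all genes −0.05). DESeq2 called 0 members in both stages.

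At the GV stage the log2 fold changes ran from −0.45 ± 0.30 for Zar1l to 0.41 ± 0.29 for Eif4enif1. The 95% intervals were wide: from −1.11 to 0.20 for Zar1l, from −1.48 to 0.64 for Lsm14b and from −1.47 to 0.87 for Ddx6. These intervals do not show that the treatments were alike.

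At the MII stage the difference was widest for Ddx6, at −1.09 ± 0.32 (unadjusted p = 0.00208, adjusted p = 0.196 in edgeR's quasi-likelihood test). Mean levels were 27.2 ± 13.2 CPM (SD, n = 12) in fresh and 12.7 ± 6.69 CPM in vitrified oocytes, and 6 of 12 fresh oocytes were above all vitrified ones. Over the alternatives the adjusted p ran from 0.0689 (DESeq2) to 0.884. Lsm14b had −0.72 ± 0.27 (unadjusted p = 0.0116, adjusted p = 0.285), with mean levels of 61.6 ± 30.9 and 37.1 ± 18.2 CPM and 3 of 12 fresh oocytes above all vitrified ones. Its adjusted p ran from 0.117 to 0.893. The other 7 members lay between −0.27 ± 0.15 for Zar1 and 0.22 ± 0.14 for Cpeb1.

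These values were set beside the cumulus markers and the library numbers. Without the 2 MII oocytes high in cumulus markers Ddx6 had −1.25 (adjusted p = 0.191) and Lsm14b −0.82 (adjusted p = 0.249). Within libraries numbered under 20 (7 oocytes a treatment) Ddx6 had −1.46 and Lsm14b −0.99 (adjusted p = 0.117 for both), and within the others (5 a treatment) −0.72 (0.884) and −0.46 (0.893). Median Ddx6 was 23.8 CPM (fresh) and 8.43 CPM (vitrified) in the first series and 22.6 and 16.7 CPM in the second.

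**Figure D4:**
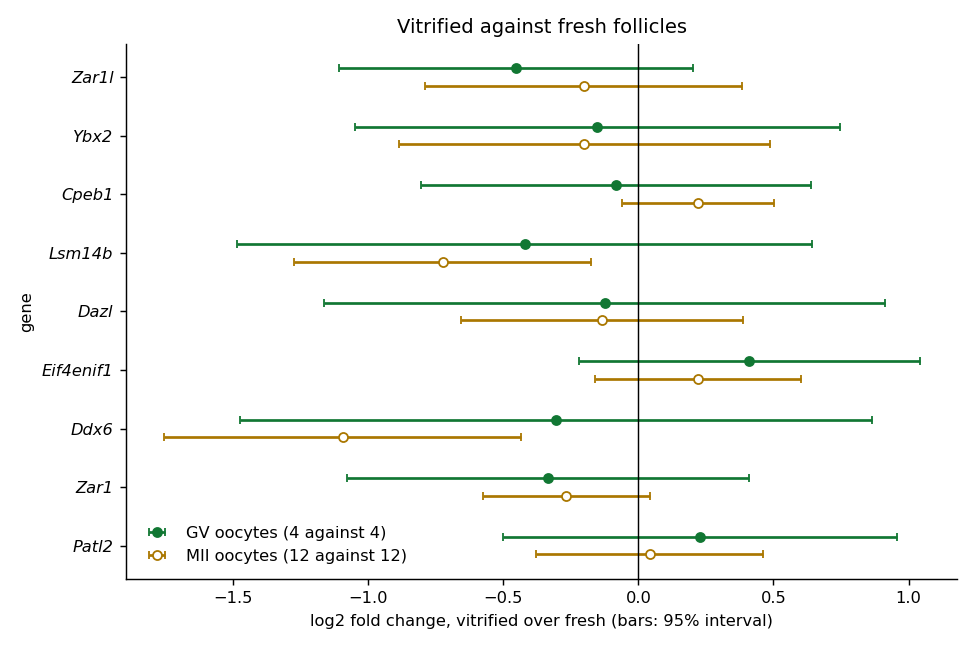
Log2 fold change, vitrified over fresh, with its 95% interval, for each transcript at GV (filled, 4 against 4 oocytes) and MII (open, 12 against 12). The intervals of Ddx6 and Lsm14b at MII lie below 0 before adjustment, and all other intervals include 0.

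Whether the stage change depended on treatment was tested as an interaction in 1 fit of all 32 oocytes. No member passed, and 0 of 9 had an unadjusted p under 0.05, against 0% and 4.08% of 11470 genes. The values ran from −0.78 ± 0.66 for Ddx6 (p = 0.240 in edgeR's quasi-likelihood test, 95% interval from −2.12 to 0.55) to 0.31 ± 0.31 for Cpeb1 (95% interval from −0.33 to 0.95).

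Some members varied together between oocytes of one stage. This is given as a description over oocytes that differ in treatment, depth and library number. At the GV stage (8 oocytes) Ybx2 and Cpeb1 ran closest together, with Spearman's rho 0.98 and Pearson's r 0.89, and rho 0.94 without the 2 oocytes farthest from the median. Cpeb1 and Lsm14b had rho 0.95 (r = 0.91), and Ybx2 and Lsm14b 0.90 (r = 0.90). Dazl ran the other way, with rho −0.90 to Ybx2, −0.86 to Cpeb1, −0.79 to Zar1 and −0.74 to Lsm14b. Fresh oocyte 3 and vitrified oocyte 2 had the highest Dazl, and fresh oocyte 4 and vitrified oocyte 3 the lowest. Of 36 pairs of members 7 were over 0.6 and 4 under −0.6. The share among pairs of all genes was not computed, so these counts do not set the members apart. Total counts moved with the same genes (rho 0.67 for Ybx2, 0.74 for Cpeb1 and 0.76 for Lsm14b), and so did Ccnb1 (cyclin B1, looked up after values of these data had been seen), with rho −0.74, −0.79 and −0.74, −0.90 for Zar1 and 0.69 for Dazl. The summed cumulus markers had rho 0.60 with Ybx2, 0.67 with Cpeb1 and 0.57 with Lsm14b. Their part in these correlations was not tested.

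At the MII stage (24 oocytes) Ddx6 and Lsm14b had the closest relation among members, with rho 0.79 and r 0.79, and rho 0.80 without the 2 farthest oocytes. It was 0.66 within fresh and 0.68 within vitrified oocytes, and 0.83 and 0.82 within the libraries numbered under 20 and the others. Zar1 and Ddx6 had rho 0.66, with 0.67 within fresh and 0.35 within vitrified oocytes. No other pair was over 0.6 and none under −0.6, and here too the share among pairs of all genes was not computed. Total count had rho 0.41 with Ddx6 and 0.37 with Lsm14b, the summed cumulus markers −0.37 and −0.49, and Ccnb1 −0.59 and −0.64. Their part was not tested.

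**Figure D5:**
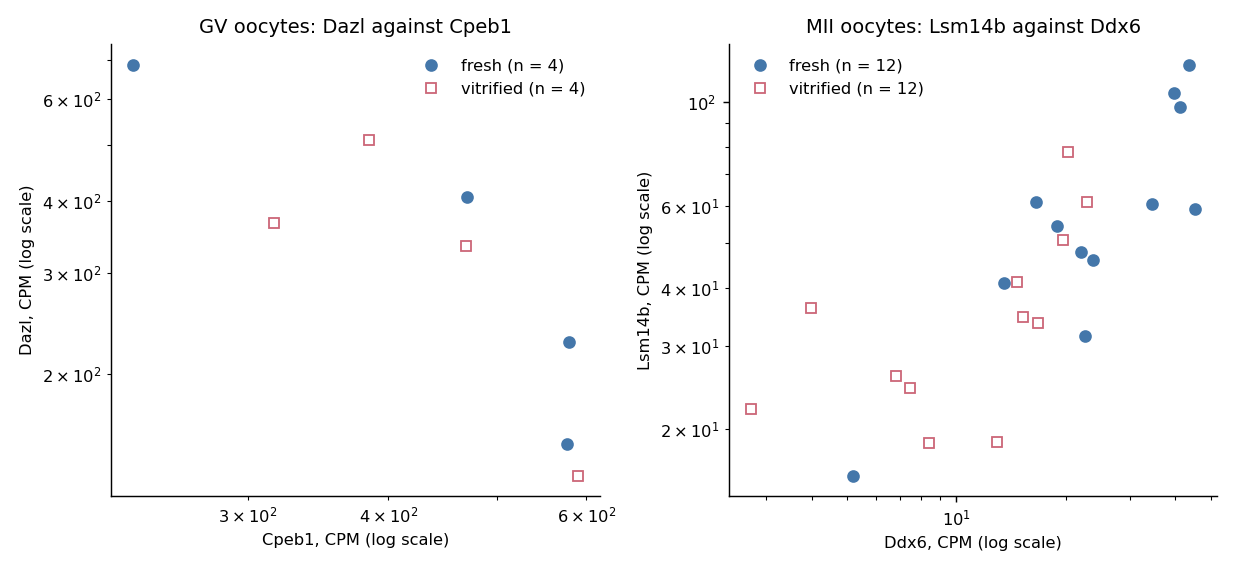
Level of Dazl against Cpeb1 in 8 GV oocytes (left) and of Lsm14b against Ddx6 in 24 MII oocytes (right), in CPM on log axes, with fresh oocytes as filled circles and vitrified oocytes as open squares. Dazl is low where Cpeb1 is high in both treatments, and Lsm14b is high where Ddx6 is high in both.

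The genes whose level ran most like a member over the 24 MII oocytes were taken from those with a mean of at least 50 CPM (2805 or 2806 candidates per member). The nearest gene to Lsm14b was Phf3 (rho 0.93), to Eif4enif1 Smug1 (0.90), to Zar1 Tent5b (0.87) and to Ddx6 Bms1 (0.85). For Cpeb1 it was Acbd3 (0.79), for Patl2 Pigh (0.79), for Zar1l Pan3 (0.77), for Dazl Srrm1 (0.74) and for Ybx2 Sf3a1 (0.69). Second in order came Stard13 (0.92), Psme3 (0.89), Nelfcd (0.82), Wdr43 (0.83), Ccdc14 (0.78), Pabpn1l (0.71), Cd36 (0.75), Nxt1 (0.74) and Tmem108 (0.67) for the same 9 members. These oocytes differ in treatment, depth and library number, and the part of these in the values was not tested. The values therefore describe likeness and nothing more. Each value is also among the 2 highest of its candidates, and how high such values run without any relation was not tested.

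A list of 55 other factors of mRNA storage, decay and translational control was read beside the members. Of 52 tested in fresh oocytes 20 were higher and 9 lower at MII, with a median log2 fold change of 0.20, and of 52 tested in vitrified oocytes 18 were higher and 12 lower, with a median of 0.22. The same over all genes tested was 23.5% higher and 30.6% lower with a median of −0.23 (fresh), and 25.1% and 34.2% with a median of −0.27 (vitrified). With total counts the list split into 10 higher and 12 lower in fresh oocytes, against 17.9% and 37.0% of all genes, and into 13 higher and 17 lower in vitrified oocytes, against 18.1% and 41.1%. Eif4e1b, an oocyte cap-binding protein that acts with EIF4ENIF1 and the ZAR proteins, fell from a mean of 120.7 to 10.6 CPM in fresh oocytes (−3.54 ± 0.31) and from 115 to 10.2 CPM in vitrified ones (−3.52 ± 0.30). Eif4e2, a cap-binding protein linked to repression, fell from 72.2 to 7.99 CPM in fresh oocytes (−3.18 ± 0.49). In vitrified ones it fell from 75.7 to 4.88 CPM (−3.97 ± 0.46). Ybx3, a Y-box protein, fell from 234 to 81.1 CPM in fresh oocytes (−1.56 ± 0.28). In vitrified ones it fell from 256 to 71.7 CPM (−1.86 ± 0.23). Tdrd3, a Tudor domain protein, fell from 65.6 to 18.7 CPM in fresh oocytes (−1.84 ± 0.26). In vitrified ones it fell from 88.4 to 12.3 CPM (−2.88 ± 0.36).

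Elavl1, which encodes the stabilizing RNA-binding protein HuR, rose from 16.9 to 70.7 CPM in fresh oocytes (2.04 ± 0.24) and from 17.9 to 73.6 CPM in vitrified ones (2.01 ± 0.23). Lsm14a, the paralog of Lsm14b, rose from 154 to 424 CPM in fresh oocytes (1.43 ± 0.19), opposite in direction to Lsm14b. In vitrified ones Lsm14a rose from 162 to 470 CPM (1.51 ± 0.19). Elavl1 and Lsm14a kept their direction and passed with total counts, as did the fallen genes named here. Between treatments none of the list passed, and 0% of all genes tested did. At GV 0 of 52 had an unadjusted p under 0.05, against 1.66% of all genes. At MII 5 of 49 had, against 12.5% of all genes. The smallest p at MII belonged to Bicc1 (0.51 ± 0.20, adjusted p = 0.307), Tdrd3 (−0.61 ± 0.27, adjusted p = 0.357), Dcp2 (−0.35 ± 0.16, adjusted p = 0.370) and Pabpc1l (−0.81 ± 0.37, adjusted p = 0.374). At GV, Cpeb2 (−2.12 ± 1.19), Syncrip (−1.72 ± 1.13) and Tdrd3 (0.44 ± 0.29) were among those with the smallest p, all with an adjusted p of 1.00. In the interaction 0 of 54 passed and 1 had an unadjusted p under 0.05, against 0% and 4.08% of all genes tested.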

How the data were processed

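The mRNA of 32 single mouse oocytes was measured in 4 groups given by the labels. Per the submitters' processing notes, HISAT2, featureCounts and mm10 were used, without versions. The deposited values of GV oocytes are whole counts. Those of MII oocytes are partly not whole and were treated like estimated counts, which the authors deposited without naming the step that made them so. Since count tests had been planned, values were rounded first. Of 13202 rows 27 were exact repeats and were removed.

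Each comparison used filterByExpr (minimum 10 counts, 15 in total), TMM scaling and the two-sided quasi-likelihood F test of edgeR 4.0.16 in R 4.3.3, with Benjamini-Hochberg adjustment over all genes tested at 0.05. Only the groups compared entered, except for the interaction. CPM values (per 1000000) use TMM over all oocytes, and log2 CPM a prior count of 2. DESeq2 1.42.0, RLE size factors, other filters, values not rounded, a replicate block, MII libraries split by number, leaving out oocytes and 1 fit of all oocytes were alternatives. Scaling to total counts and leaving out the 2 GV oocytes that stood apart were chosen after seeing the data. Counts vary with depth, so low values are the least precise. The edgeR step was tested on simulated counts in which few genes changed, as many up as down. The stage comparisons differ from that setting, since many genes changed there, and the interaction was not simulated.

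The members and lists were chosen with earlier results of these data known. Named were all members, up to 4 genes of the related list with the smallest p per comparison (1 gene is not reported here), and the 2 genes most like each member over MII oocytes. Oocyte and cumulus markers were summed in CPM, and an oocyte was set aside as high in cumulus markers where its sum passed 3 times the median of its stage. Symbols were matched to GENCODE M21 (13059 of 13175) for positions, exon lengths and 3′ ends.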

Additional observations from a re-analysis of the deposited data

Results flagged for a closer look

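Of 18 groups of 4 GV oocytes, 9 members in 2 treatments, 2 held an oocyte whose gap to its nearest neighbour was a large part of the whole range by Dixon's criterion. Chance flags about 1 in 20 groups. Zar1l was 1171 CPM in fresh GV oocyte 3, which also stood apart over all genes, and the gap was 0.838 of the range. Patl2 was 55.6 CPM in vitrified GV oocyte 2, with a gap of 0.883 of a narrow range, and the other 3 oocytes lay between 45.6 and 46.8 CPM.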

How the results depend on the processing

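The number of members past the test kept within 1.5 times its value under every alternative run, at 5 to 7 in fresh and 5 to 7 in vitrified stage comparisons and 0 elsewhere. Leaving out 1 oocyte gave 6 to 7 and 6. Replicate numbers showed no clear pairing of fresh with vitrified oocytes. Correlations of deviations ran from −0.55 to 0.37 over 4 GV pairs and from −0.47 to 0.44 over 12 MII pairs. Closest to their own number were 1 of 4 GV and 0 of 12 MII oocytes. Some library numbers also occur in both treatments, and pairing by them was not checked. With a replicate block 5 members passed in fresh (Ddx6 at adjusted p = 0.0774 and Eif4enif1 at 0.106 did not), 6 in vitrified and 0 in the other comparisons. DESeq2 called 36 genes between treatments at MII and 8 in the interaction, where edgeR called 0, and no member was among them.

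Of 1047 alternatives for single genes 1007 kept direction and side of the threshold, 14 lost and 3 gained a call and 23 turned in sign, all of uncalled values; the cause was not tested. At GV, vitrified over fresh, Dazl was 0.032 with the replicate block and 0.30 without the 2 oocytes that stood apart. Leaving out 1 oocyte gave −0.38 to 0.35 for Dazl, −0.304 to 0.041 for Cpeb1 and −0.635 to 0.024 for Ybx2, and −0.034 to 0.144 for Patl2 at MII. At MII Patl2 was −0.081 with total counts. With library numbers of 20 and over Patl2 was −0.24 and Ybx2 0.095, and Patl2 was 0.017 in the fresh stage comparison. With numbers under 20 Cpeb1 was −0.096 at MII and −0.018 in the interaction. With total counts the stage change of Zar1 was −0.032 (fresh) and −0.073 (vitrified) and that of Ddx6 −0.051 (vitrified), which was −0.0067 with the replicate block. Low counts limit the precision of Ybx2 and Zar1l at MII and of Ddx6.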

Other observations

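Spread between oocytes of one group differed among members. At the GV stage Dazl had a coefficient of variation of 64.8% in fresh and 46.1% in vitrified oocytes, and Ddx6 17.9% and 68.5%. Patl2 had 31.7% and 9.83% and Zar1l 25.4% and 28.1%. At the MII stage Zar1 varied by 26.0% and 25.9%, the lowest of the 9 in vitrified oocytes, and Cpeb1 by 18.1% in fresh oocytes, while Ybx2 and Zar1l at their low MII counts varied by 44.4% and 44.8% in fresh and 54.1% and 43.8% in vitrified oocytes. The fresh and vitrified spreads were not tested against each other.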
